A study of Mus musculus with 18 samples.

Results

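The genes of mitochondrial protein import were followed in single mouse oocytes. Members were chosen by gene symbol in the GENCODE vM21 annotation: every protein-coding gene named as a subunit of the translocases of the inner membrane (Timm followed by a number, and Timmdc1) or of the outer membrane (Tomm followed by a number), together with Pam16, Dnajc19, Grpel1, Hspa9, Pmpca, Pmpcb, Samm50, Mtx1 and Mtx2. This gave 35 of the 47069 genes in the deposited tables. Of these members, 31 were among the 12161 genes that passed a filter on low counts, and Pmpca, Tomm20l, Tomm40l and Tomm5 were not. Tomm20l and Tomm40l had 0 counts in every oocyte.

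Oocytes were collected at 2 stages. Immature oocytes still carry their nucleus, the germinal vesicle (GV), and mature eggs wait in metaphase II (MII). All mice were of the strain C57BL/6JAusb, in 3 conditions. Young controls were 4 weeks old and aged controls 12 months old. The third group, also 12 months old, drank nicotinamide mononucleotide (NMN), from which cells make the coenzyme NAD, at 2 g/L for 4 weeks, and both control groups drank water without it. Values below rest on 2 GV oocytes from young controls, 2 from aged controls and 3 from NMN-treated mice, and on 3 MII oocytes from each condition. The labels name no animals, so oocytes of a group may share a mouse, no test between groups is given, and all values describe these 16 oocytes.

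Almost all mitochondrial proteins are encoded in the nucleus, made in the cytosol and imported. The TOM complex is the entry gate of the outer membrane, the SAM complex inserts barrel proteins there, small TIM chaperones carry membrane proteins across the intermembrane space, TIM22 inserts carriers into the inner membrane, and TIM23 with its motor draws precursors that carry a presequence into the matrix, where a peptidase removes it. Oocytes hold the mitochondria that the embryo inherits. A fully grown oocyte is largely silent in transcription, so that meiotic maturation draws on stored mRNAs, many of which are degraded on the way to the egg.

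Library totals ran from 2756181 to 5586894 counts, so that 3 counts, taken as the floor, were worth 0.537 to 1.09 CPM (counts scaled to a common library total) in a library. This floor is before the TMM scaling that the levels below carry. After it, 3 counts were worth 0.468 CPM in MII young control 2, for example. Markers of the oocyte summed to at least 1191 CPM in every oocyte. Pooled over the oocytes of a group, 12 of 12 listed markers had a count in 5 groups. In MII aged NMN, oocytes 1 and 2 had 7 of 12 markers each, summing to 1191 and 1581 CPM, and oocyte 2-1 had 11 of 12, at 7104 CPM. MII young control 1 and MII aged control 2 and 2-1 also had 11 of 12 each. The granulosa markers Amh, Amhr2 and Foxl2 and the immune markers Ptprc and C1qa were at 0 in every oocyte, while the whole list of 15 cumulus and granulosa markers summed to 13.9 to 105 CPM before and 0 to 299 CPM after maturation. The list of 7 immune markers summed to 237, 101 and 175 CPM in GV aged control 1 and GV aged NMN 1 and 2, of which C1qb took 227, 97.3 and 166 CPM, and to 8.88 to 21.9 CPM in the other GV and 0 to 43.0 CPM in the MII oocytes. Theca and stroma, endothelial and erythroid lists summed to at most 15.9, 62.3 and 29.8 CPM in an oocyte. The libraries were made from the supernatant of a lysed oocyte after its nucleus had been pelleted. MII oocytes have no nucleus, so a difference in stage and a difference in the fraction kept cannot be told apart. Libraries titled GV young control 1 and 2-1 were identical and were counted as 1, and a GV aged control library of 5009 counts, with no count of any member, was left out. The MII oocytes from NMN-treated mice had few detected genes: 6444, 5679 and 7725 genes had a count in them, against 8539 to 13477 in the other MII oocytes, and genes of the mitochondrial genome made up 43.0, 33.2 and 6.18% of those libraries. That share was 5.08 to 24.4% in the other MII and 2.76 to 8.55% in GV oocytes, so oocyte 2-1 lay within the range of the others and the share moved with maturation as well. Its part in the maturation results was not tested.

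The mean summed level of import genes was lower in MII than in GV oocytes in each of the 3 conditions, while single genes differed in direction. Summed over the 35 genes it was 5152 ± 431 CPM (SD between oocytes, n = 2) in GV young control, 3918 ± 182 CPM (n = 2) in GV aged control and 4620.3 ± 838 CPM (n = 3) in GV aged NMN oocytes. It was 1887 ± 1259, 1782 ± 595 and 1800.0 ± 739.8 CPM (n = 3 each) in the MII groups in the same order. All 7 GV oocytes, at 3790 to 5519 CPM, lay above all 9 MII oocytes, at 999 to 3340 CPM. That order rests on Timm17a: without it the GV oocytes were at 2731 to 4459 and the MII oocytes at 986 to 3233 CPM, and MII young control 1 lay above 5 GV oocytes, among them GV young control 2-2. Between 28 and 31 import genes had at least 1 count in a GV oocyte and 26 to 32 in an MII young control oocyte. MII aged controls had 27, 25 and 23, and MII aged NMN oocytes 15, 13 and 22.

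**Figure D1:**
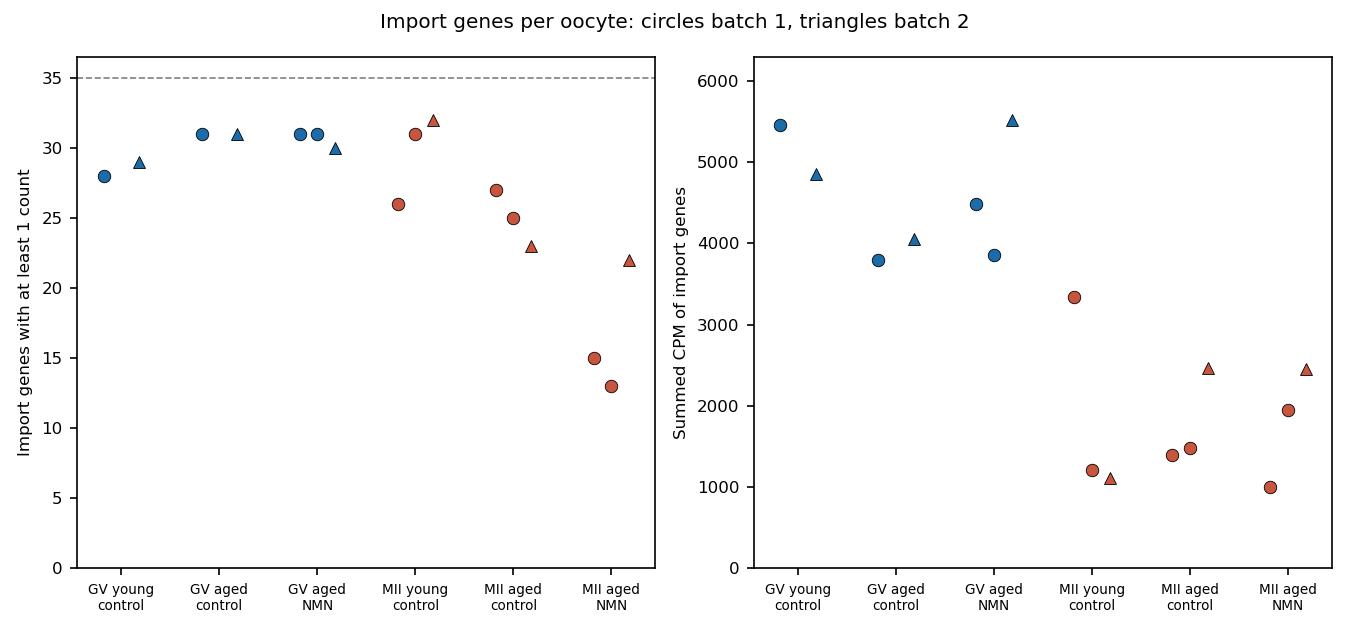
Number of the 35 import genes with at least 1 count (left, dashed line at 35) and their summed TMM-scaled CPM (right) in each oocyte by group; circles are batch 1, triangles batch 2, blue GV and red MII. The summed level of all 7 GV oocytes lies above that of all 9 MII oocytes, and the fewest import genes, 13 to 22, were detected in MII aged NMN oocytes.

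A gene is called lower or higher here when the ratio of group means, each with 1 CPM added, was at least 2-fold and no oocyte of a group overlapped those of the other. This is a description, not a test. At maturation in young controls, 16 of 35 import genes were called lower and 3 higher, and the background over all 12161 genes was 15.4% called lower and 16.6% called higher. In aged controls 16 were called lower and 0 higher, against 25.9% and 8.33% of all genes. In NMN-treated mice 20 were called lower and 0 higher, against 26.8% and 3.34%. The median log2 ratio of the 35 genes was -1.45, -1.57 and -2.60 in young control, aged control and NMN oocytes. Over the 31 that passed the filter it was -1.61, -1.71 and -2.89, and over all genes that passed 0.35, -0.29 and -0.82. Libraries whose titles say batch 2 with an oocyte number form batch 2. The rest, most with no batch in the title, were taken as batch 1. Within batch 1 the median over the 31 was -1.35, -1.80 and -3.64, and within batch 2, with 1 oocyte a side, -2.11, -1.77 and -2.70.

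Called lower in all 3 conditions were 10 members: Tomm22, Tomm6 and Tomm7 of the TOM complex, Mtx1 of SAM, the small chaperones Timm9, Timm10b and Timm13, the channel subunit Timm17a, and Dnajc19 and Grpel1 of the motor. Of all genes, 8.56% were called lower in all 3. For the same 10 members every one of the 7 GV oocytes lay above every one of the 9 MII oocytes, an order seen in 6.98% of all genes. Another 7 members were called lower in 2 conditions, 8 in 1 condition and 10 in none. The last include Tomm20l and Tomm40l, which had no count in any oocyte, and Tomm5, which did not pass the filter. The shares of all genes with these patterns were not counted, so these numbers have no background beside them.

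**Figure D2:**
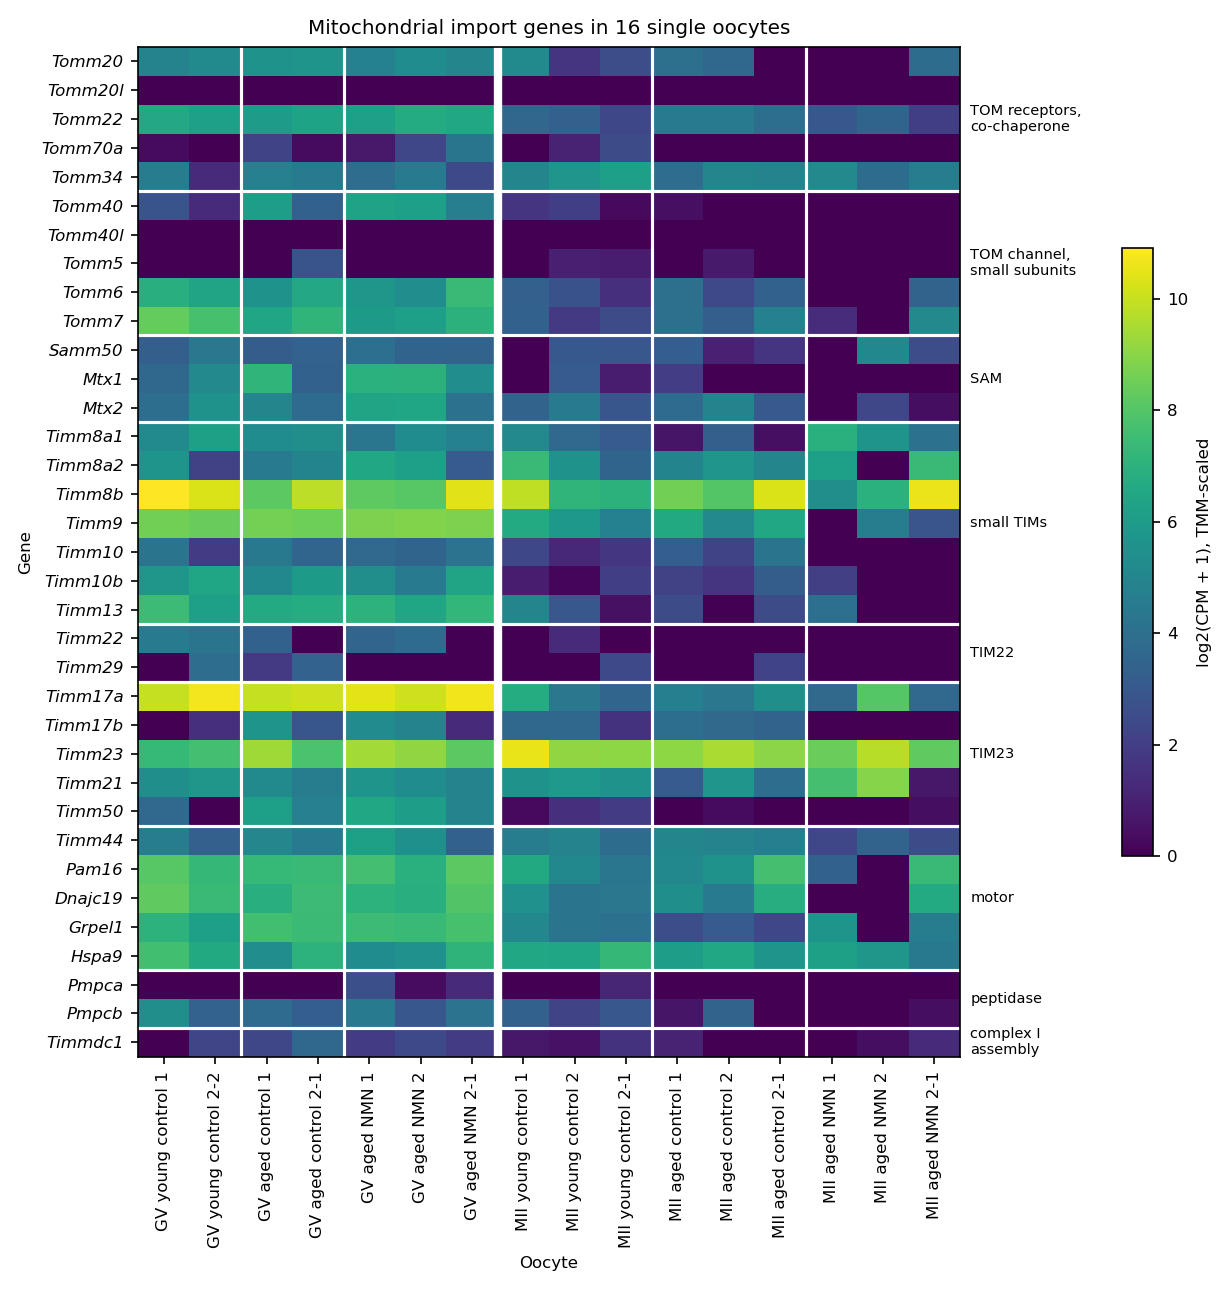
Level of each import gene as log2(CPM + 1) in each of the 16 oocytes, with genes ordered by role and oocytes by group; the thick white line parts GV from MII oocytes. Timm17a, Timm9 and Grpel1 are bright at left and dark at right, Timm23 is bright throughout, and the columns of MII aged NMN oocytes hold the most genes at 0.

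The core pair of the TIM23 complex had different patterns. Timm17a and Timm23 encode related membrane proteins that together form the core of the presequence translocase. Timm17a lies on chromosome 1 (GRCm38, 135295213 to 135313778, minus strand) and Timm23 on chromosome 14 (32180162 to 32201898, minus strand). In the lists that follow, values are CPM in the order oocyte 1 and 2-2 (GV young control), 1 and 2-1 (GV aged control), 1, 2 and 2-1 (every other group), where numbers that begin with 2- mark batch 2. Timm17a stood at 999 and 1709 in GV young control, 993 and 1102 in GV aged control, and 1415, 1129 and 1641 in GV aged NMN oocytes. It stood at 107, 19.9 and 10.8 in MII young control, 25.6, 19.0 and 42.2 in MII aged control, and 12.7, 262 and 12.2 in MII aged NMN oocytes. The lowest GV oocyte was well above the highest MII oocyte, which was oocyte 2 of the NMN group. The ratio of mean levels was 29.5-fold lower in MII for young control, 36.2-fold lower for aged control and 14.6-fold lower for NMN oocytes.

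Timm23 was not called lower in any condition. It stood at 157 and 201 CPM in GV young control, 653 and 225 in GV aged control, and 672, 555 and 282 in GV aged NMN oocytes. In MII oocytes it stood at 1491, 552 and 532 (young control), 527, 731 and 515 (aged control), and 351, 863 and 304 (NMN). Both GV young control oocytes were below all MII oocytes, and the GV aged groups overlapped their MII groups. In young controls the mean was 4.79-fold higher in MII, with a log2 ratio of 2.69 within batch 1 and 1.40 within batch 2, and in aged control and NMN oocytes the log2 ratio was 0.43 and 0.01.

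Per length, in TPM (transcript counts scaled by length and library), Timm17a exceeded Timm23 in all 7 GV oocytes and Timm23 exceeded Timm17a in all 9 MII oocytes. The log2 ratio of Timm17a to Timm23 spanned 1.02 to 3.64 before and -4.86 to -1.28 after maturation. Timm17a took 18.3 to 35.3% of all import-gene CPM in GV oocytes and 0.497 to 13.5% in MII oocytes. Timm23 took 2.88 to 17.2% and 12.4 to 49.3%. Counts of Timm17a were fractional in 9 of the 16 libraries and those of Timm23 in 12 of 16, which marks reads shared with other places in the genome, so their levels are less certain than those of genes with whole counts. The same holds for Pam16 (14 of 15 libraries that held it), Timm17b (7 of 12), Tomm20 (7 of 13), Tomm40 (5 of 11) and Timm22 (3 of 6). Smaller shares were fractional for Grpel1, Timmdc1, Timm10b, Tomm34, Timm8a1 and Dnajc19.

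**Figure D3:**
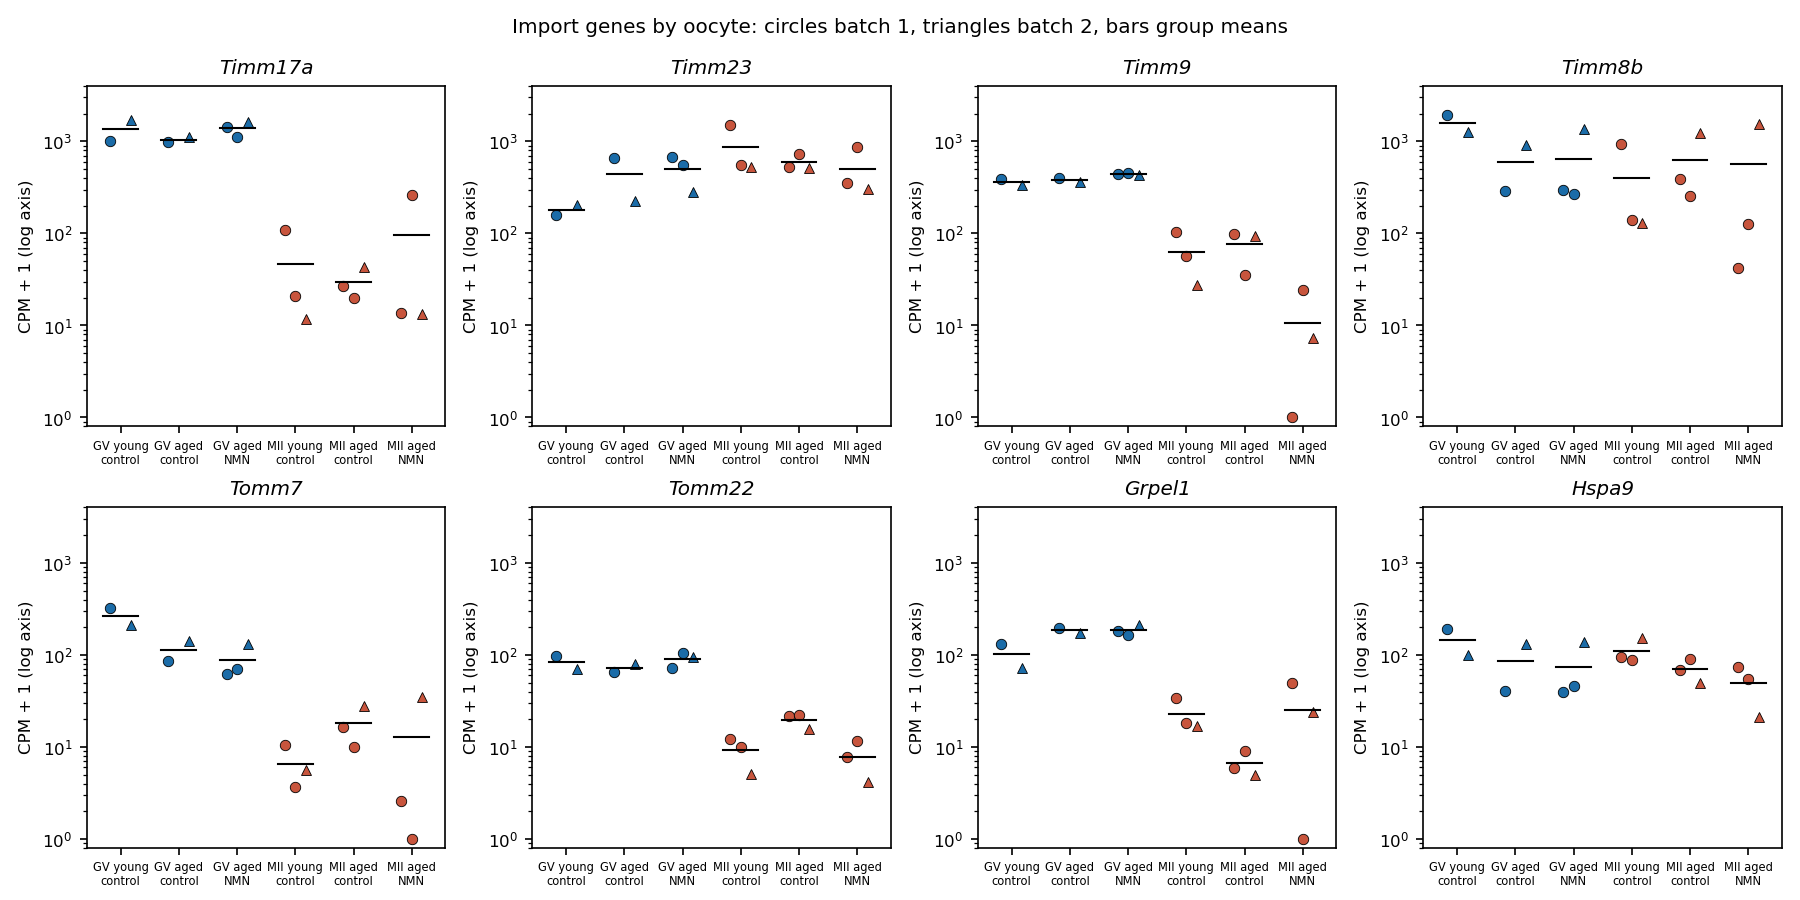
CPM + 1 on a log axis for 8 import genes in each oocyte, by group; circles are batch 1, triangles batch 2, bars group means, blue GV and red MII. Timm17a, Timm9, Tomm7, Tomm22 and Grpel1 have all GV oocytes above all MII oocytes, while Timm23, Timm8b and Hspa9 overlap.

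The 250 bases before the RefSeq start of Timm17a, of Timm23 and of 2 more members that were lower at maturation, Timm9 and Tomm22, are shown because the first pair moved differently and the other pair moved with Timm17a. They are in GRCm38.p6 coordinates, 5′ to 3′ on the gene's strand: Timm17a at chr1:135313738-135313987, minus; Timm23 at chr14:32201892-32202141, minus; Timm9 at chr12:71136676-71136925, minus; Tomm22 at chr15:79670618-79670867, plus. Capitals mark matches, on either strand, to 3 motifs. The core of an ETS factor site was searched as CCGGAAG. The GC box was searched as GGGCGG, and the third motif was the CCAAT box by those letters.
Timm17a: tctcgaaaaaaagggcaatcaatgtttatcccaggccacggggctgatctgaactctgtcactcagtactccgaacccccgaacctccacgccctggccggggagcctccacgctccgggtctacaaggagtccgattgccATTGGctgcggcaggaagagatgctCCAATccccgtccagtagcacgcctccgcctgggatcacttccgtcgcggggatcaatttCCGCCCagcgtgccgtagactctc
Timm23: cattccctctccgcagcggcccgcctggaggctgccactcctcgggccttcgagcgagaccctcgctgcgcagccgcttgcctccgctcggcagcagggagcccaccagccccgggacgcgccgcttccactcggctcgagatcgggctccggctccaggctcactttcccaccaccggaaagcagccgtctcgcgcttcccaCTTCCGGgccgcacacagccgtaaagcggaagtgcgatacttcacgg
Timm9: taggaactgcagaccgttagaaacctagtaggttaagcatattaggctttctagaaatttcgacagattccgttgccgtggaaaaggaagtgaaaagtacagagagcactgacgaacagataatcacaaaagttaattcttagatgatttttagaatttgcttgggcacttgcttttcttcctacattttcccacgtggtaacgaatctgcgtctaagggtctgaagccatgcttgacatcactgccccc
Tomm22: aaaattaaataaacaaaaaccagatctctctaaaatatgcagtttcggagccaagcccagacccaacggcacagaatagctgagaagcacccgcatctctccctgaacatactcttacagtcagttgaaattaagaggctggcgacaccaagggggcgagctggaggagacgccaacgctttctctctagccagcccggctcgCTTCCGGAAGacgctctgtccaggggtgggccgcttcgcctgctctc
Timm17a held 2 CCAAT boxes and 1 GC box in this window, Timm23 held 1 ETS core, Tomm22 held 2 ETS cores that overlap each other, and Timm9 held none of the 3 motifs. The 31 import genes with a RefSeq entry are not the 31 that passed the filter, since Pmpca, Tomm5 and Tomm20l are among them. Of those with an entry, 14 (45.2%) held an ETS core. The share was 15.99% of the 9020 genes with an entry that passed the filter, and 7.83% of all 27025 genes with an entry. A GC box was in 58.1% of import genes, 60.4% of genes that passed and 35.4% of all genes, and a CCAAT box in 32.3, 41.0 and 37.5%. Of the 10 members called lower in all 3 conditions 9 had an entry, and 3 of them (Grpel1, Mtx1 and Tomm22) held an ETS core. A match is a run of letters and not a shown binding site.

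Among the other TIM23 subunits, Timm50 encodes the presequence receptor, Timm21 a subunit that contacts TOM, and Timm17b an X-linked relative of Timm17a. Timm50 stood at 12.1 and 0 CPM in GV young control, 71.3 and 26.3 in GV aged control and 91.8, 68.0 and 28.1 in GV aged NMN oocytes. In MII oocytes it was at 0.210, 1.87 and 2.69 (young control), 0, 0.251 and 0 (aged control) and 0, 0 and 0.313 (NMN). No MII oocyte reached the lowest of the 5 GV oocytes from aged mice, and the young control groups overlapped. The MII aged control and MII aged NMN groups held 1 count each, against 513 and 724 counts in the GV groups. The ratio of pooled CPM was 653 (95% interval 117 to 25824) and 608 (109 to 24062), an interval that covers counting error only, like all intervals and floors here.

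Timm17b stood at 0 and 1.83 CPM in GV young control, 48.8 and 6.64 in GV aged control, 37.1, 28.8 and 1.54 in GV aged NMN, 11.5, 11.4 and 2.07 in MII young control, 14.5, 12.5 and 10.2 in MII aged control and 0 in all 3 MII aged NMN oocytes. It was called higher at maturation in young controls, by a log2 ratio of 2.28, a call that rests on 2.07 against 1.83 CPM in batch 2 and is lost with another scaling (RLE). It was called lower in NMN oocytes, at least 67.0-fold where the floor is 3 counts pooled over the MII group. That absence of overlap rests on 4 counts in GV aged NMN oocyte 2-1, and the log2 ratio was -5.09 within batch 1 and -1.34 within batch 2. Timm21 was called in no comparison, at 23.6 to 53.3 CPM in GV oocytes and 0.626 to 494 CPM in MII oocytes, the highest being NMN oocytes 1 and 2.

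The motor pulls precursors into the matrix. Hspa9 encodes mortalin, the Hsp70 that does the pulling, Grpel1 its nucleotide exchange factor, Dnajc19 and Pam16 the J-protein pair that regulates it, and Timm44 the anchor at the channel. Grpel1 stood at 130.2 and 71.3 CPM in GV young control, 196 and 174 in GV aged control and 179, 163 and 212 in GV aged NMN oocytes. In MII oocytes it stood at 32.7, 17.1 and 15.7 (young control), 4.94, 8.02 and 4.00 (aged control) and 49.0, 0 and 23.1 (NMN). The groups did not overlap in any condition, and the mean was 4.61-fold, 32.7-fold and 7.68-fold lower in MII. Counts of Grpel1 were fractional in 6 of the 15 libraries that held it.

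Hspa9 was called lower in none of the conditions. It stood at 192 and 98.2 CPM in GV young control, 40.0 and 132 in GV aged control and 38.9, 45.1 and 136 in GV aged NMN oocytes. In MII oocytes it stood at 93.2, 86.0 and 152 (young control), 68.2, 89.4 and 49.1 (aged control) and 73.2, 53.4 and 20.02 (NMN). The stages overlapped in every condition, with log2 ratios of -0.39, -0.31 and -0.57. Timm44 stood at 23.7 and 9.14, then 32.1 and 22.1, then 72.8, 44.0 and 9.63 CPM in the GV groups, and at 22.8, 28.1 and 13.5, then 30.8, 28.8 and 25.5, then 3.96, 10.3 and 4.69 CPM in the MII groups. In CPM it was called at maturation in no condition. In deposited TPM Timm44 was called higher in young controls, at a log2 ratio of 1.34, and lower in NMN oocytes, at -2.65. Dnajc19 was called lower in CPM in all 3 conditions, by 8.51-fold, 2.48-fold and 4.88-fold. Pam16 was called lower in young controls, by 4.21-fold, with log2 ratios of -0.75 and -1.74 in aged control and NMN oocytes. Dnajc19 shares 178 exon bases with Fxr1 on the opposite strand, a gene at 73.3 to 318 CPM, and the kit is not stated to keep strand, so its reads and those of Fxr1 cannot be told apart there.

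The small TIM chaperones shuttle membrane proteins through the intermembrane space as ring-shaped complexes, chiefly of Timm9 with Timm10 and of Timm8 proteins with Timm13. Timm9 varied little among GV oocytes, at 385 and 332, 397 and 364, and 439, 457 and 434 CPM in young control, aged control and NMN groups. In MII oocytes it stood at 101, 56.0 and 26.5, at 98.3, 34.1 and 92.4, and at 0, 23.0 and 6.26 CPM. Every GV oocyte was above every MII oocyte, and the mean was 5.85-fold, 5.08-fold and 45.5-fold lower in MII. Its complex partner Timm10 was low at both stages, at 2.87 to 20.2 CPM before and 0 to 17.5 CPM after maturation, and was called lower in NMN oocytes and in neither control. All 3 MII NMN oocytes were at 0, and the MII controls at 1.40 to 17.5 CPM.

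Timm10b, a part of the TIM22 complex, stood at 53.9 and 86.5, 33.5 and 60.7, and 41.0, 21.7 and 81.2 CPM in GV oocytes. In MII oocytes the values were 0.838, 0.156 and 3.11, then 3.35, 2.25 and 8.37, then 3.16, 0 and 0 CPM. The stages were apart in every condition, and the mean was 51.4-fold, 10.1-fold and 45.5-fold lower in MII. Timm13 was likewise called lower in all 3 conditions, from a GV range of 70.0 to 176 CPM to an MII range of 0 to 31.6 CPM.

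Timm8b had the highest mean level per length of all import genes in each of the 6 groups, at 1202 to 4282 TPM, but it ranked first in 9 of the 16 oocytes, with Timm17a first in 3 GV and Timm23 in 4 MII oocytes. It stood at 1929 and 1267 CPM in GV young control, 285 and 919 in GV aged control and 298, 267 and 1377 in GV aged NMN oocytes. In MII oocytes it stood at 933, 140.3 and 128 (young control), 389.5, 255 and 1243 (aged control) and 40.7, 126 and 1543 (NMN). It was called lower at maturation in young controls and in neither aged group, and the stages overlapped widely in aged mice. Timm8a1, on the X chromosome and known in humans as the gene of a deafness-dystonia syndrome, stood at 36.6 and 72.9, 38.6 and 41.6, and 18.5, 38.9 and 27.0 CPM in GV oocytes. The MII oocytes were at 34.6, 12.5 and 8.07, at 0.529, 9.02 and 0.364, and at 119.8, 49.4 and 16.3 CPM. It was called lower at maturation in both control groups and overlapped in NMN oocytes. Timm8a2 overlapped between the stages in every condition, at 3.40 to 89.5 CPM before and 0 to 167 CPM after maturation.

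Timm22, the carrier insertase, was scarce. It stood at 20.6 and 17.5, 9.48 and 0, and 10.8, 13.0 and 0 CPM before maturation, and at 0 in every MII oocyte except 1.56 CPM in MII young control 2. It was called lower at maturation in young controls, by 36.7-fold. Timm29, another TIM22 subunit, was detected in 5 oocytes at no more than 14.1 CPM.

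At the outer membrane, Tomm22 encodes the central receptor that also organises the TOM complex, Tomm20 the presequence receptor and Tomm70a the receptor for carriers. Tomm22 stood at 95.4 and 69.8, 64.8 and 78.4, and 70.5, 104 and 93.2 CPM in GV oocytes. Its MII values were 11.3, 9.04 and 4.14, then 21.0, 21.0 and 14.6, then 6.72, 10.6 and 3.13 CPM. No GV oocyte overlapped an MII oocyte, and the mean was 10.1-fold, 3.80-fold and 13.1-fold lower in MII. Tomm20 stood at 28.6 and 34.7, 45.8 and 48.9, and 27.0, 38.3 and 31.6 CPM in GV oocytes. In MII oocytes the values were 35.2, 2.18 and 5.18, then 15.5, 11.8 and 0, then 0, 0 and 13.5 CPM. It was called lower in aged control and NMN oocytes, by 5.21-fold and 7.20-fold, while in young controls MII oocyte 1 was as high as GV oocytes. With RLE scaling Tomm20 was called lower in young controls too, at a log2 ratio of -1.45.

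Tomm70a was nearly absent, at 0.258 and 0, 3.69 and 0.246, and 0.687, 4.08 and 17.7 CPM before maturation. MII young control oocytes had 0, 1.09 and 4.55 CPM. The gene was at 0 in all 6 MII oocytes of aged mice. Tomm34, a cytosolic co-chaperone of preproteins and not a subunit of the pore, stood at 23.5 and 1.57, 26.3 and 20.7, and 14.0, 22.0 and 4.24 CPM in GV oocytes. The MII oocytes were at 30.4, 53.0 and 70.4, at 13.9, 30.8 and 28.4, and at 34.0, 13.7 and 23.5 CPM. Its mean was 4.10-fold higher in MII than in GV young controls, a call that is lost with RLE scaling, and the stages overlapped in aged mice.

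Tomm40 is the channel of the outer membrane, and Tomm5, Tomm6 and Tomm7 are its small partners. Tomm40 stood at 6.19 and 1.57, 66.0 and 9.59, and 77.4, 71.0 and 24.6 CPM in GV oocytes. Its MII values were 2.095, 3.12 and 0.207, then 0.353, 0 and 0, then 0, 0 and 0 CPM. It overlapped in young controls and was called lower in both aged groups. In aged controls, 2 counts in MII stood against 415 in GV, a ratio of pooled CPM of 264 (95% interval 72.6 to 2187). In NMN oocytes it was at least 172-fold lower.

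Tomm7 stood at 321 and 213, 85.0 and 141, and 61.1, 70.1 and 129 CPM in GV oocytes. In MII oocytes the values were 9.43, 2.65 and 4.55, then 15.5, 9.02 and 26.9, then 1.58, 0 and 33.8 CPM. Tomm6 stood at 118 and 82.8, 46.0 and 94.9, and 53.6, 39.7 and 166 CPM in GV oocytes. The MII oocytes were at 9.22, 5.77 and 1.86, at 15.5, 4.26 and 9.46, and at 0, 0 and 10.01 CPM. Both had every GV oocyte above every MII oocyte. The mean of Tomm7 was 48.1-fold, 6.59-fold and 7.37-fold lower in MII, and that of Tomm6 17.8-fold, 7.23-fold and 25.9-fold. Tomm6 shares 859 of 1131 exon bases with Gm21981 on the same strand, a gene at 0 in every oocyte. Tomm5 had a count in 4 oocytes, at 6.15 CPM in GV aged control 2-1 and under 1 CPM in the others.

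In the SAM complex, Samm50 is the barrel that inserts other barrels, and Mtx1 and Mtx2 are its metaxin partners. Samm50 stood at 8.77 and 19.6, 8.26 and 9.84, and 14.9, 10.3 and 10.01 CPM in GV oocytes. Its MII values were 0, 7.01 and 6.83, then 8.46, 1.00 and 2.18, then 0, 33.6 and 5.01 CPM. Mtx1 stood at 11.9 and 34.5, 141 and 9.35, and 124, 127 and 39.7 CPM in GV oocytes. In MII oocytes the values were 0, 8.10 and 0.828, then 2.996, 0 and 0, then 0, 0 and 0 CPM. The stages did not overlap for Mtx1 in any condition, whereas Samm50 was called lower in young controls, by 3.07-fold, a call that is lost in deposited TPM, and with RLE scaling it was called lower in aged controls too. Mtx1 was 7.78-fold and 75.3-fold lower in MII of young and aged controls and at least 289-fold lower in NMN oocytes. Mtx2 stood at 14.2 and 48.3, 30.6 and 13.3, and 80.8, 88.1 and 16.6 CPM in GV oocytes. The MII oocytes were at 10.3, 22.1 and 6.62, at 13.2, 28.1 and 7.28, and at 0, 4.04 and 0.313 CPM. It was called lower in NMN oocytes and in neither control, by 42.6-fold.

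The presequence peptidase has a catalytic subunit, Pmpcb, and a substrate-binding subunit, Pmpca. Pmpcb lay at 6.80 to 41.3 CPM before and 0 to 10.02 CPM after maturation and was called lower in young control and NMN oocytes, and neither call held in deposited TPM. Pmpca was detected in 4 oocytes, at no more than 5.27 CPM. Timmdc1, a complex I assembly factor that carries a TIM name, lay at 0 to 11.8 CPM before and 0 to 2.07 CPM after maturation and was called lower in aged control and NMN oocytes.

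**Figure D4:**
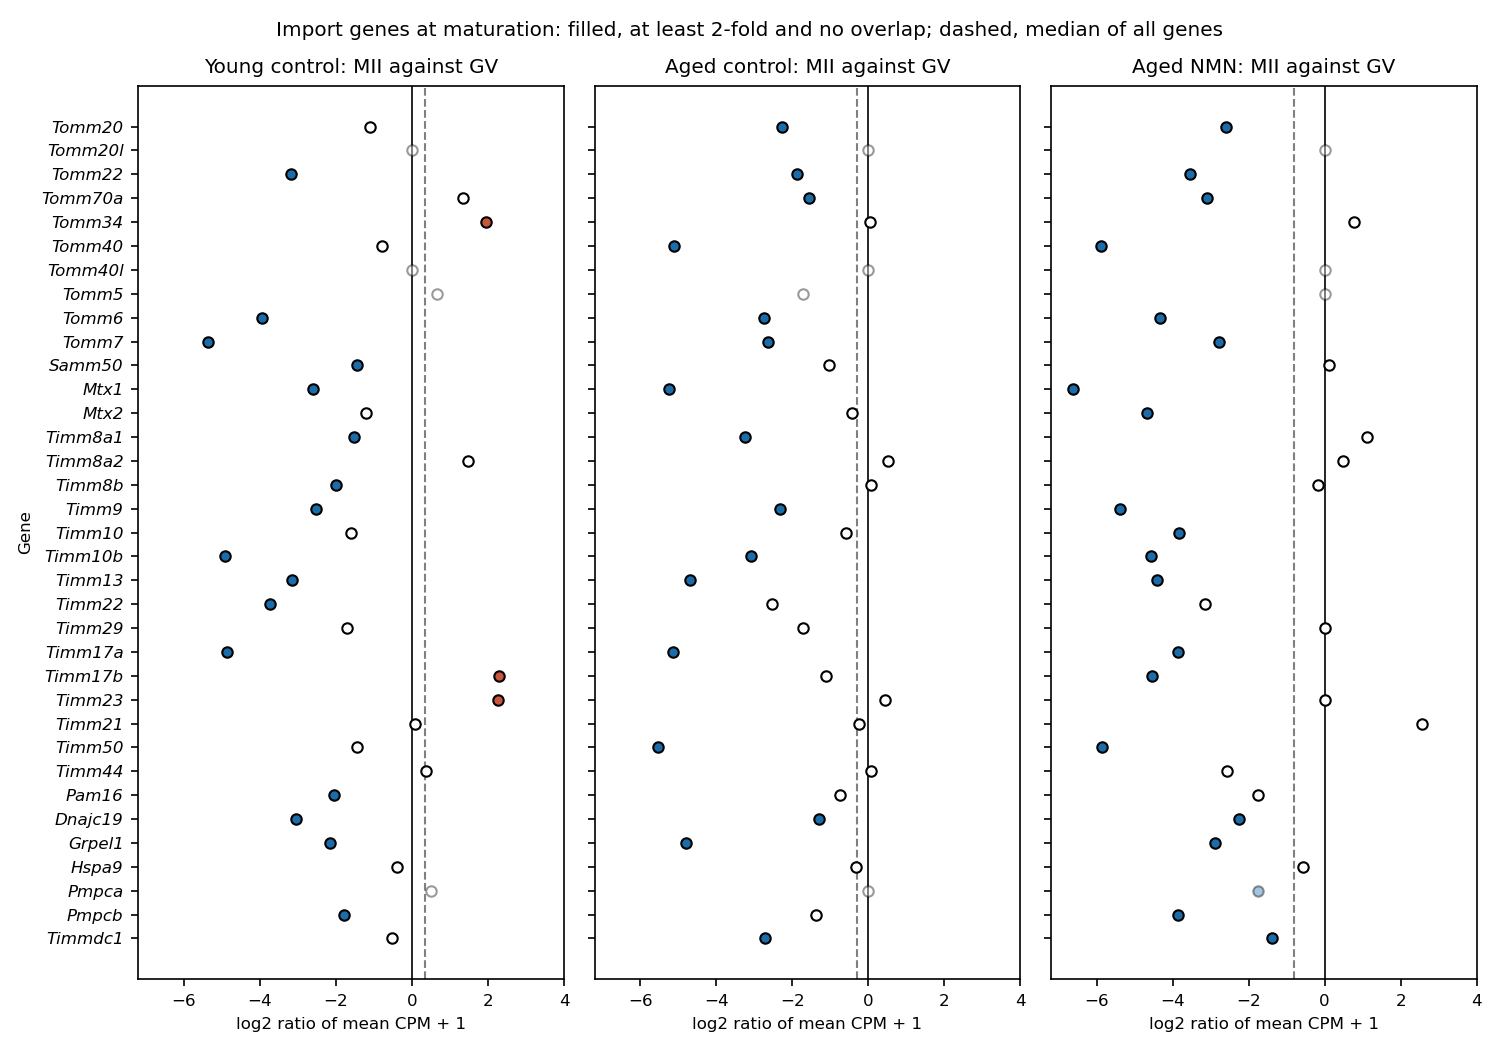
log2 ratio of mean CPM + 1 (MII against GV) for each import gene in young control, aged control and aged NMN oocytes; filled blue points are called lower, filled red points higher, open points overlap or lie under 2-fold, pale points did not pass the low-count filter, and the dashed line is the median of all genes. Most import genes lie left of the dashed line, and the 3 genes called higher are all in young controls.

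Other genes that act around import were counted over a list of 45, of which 44 passed the filter. At maturation 11 were called lower and 3 higher in young controls, 21 and 3 in aged controls, and 16 and 2 in NMN oocytes. These were 25 and 6.82%, 47.7 and 6.82%, and 36.4 and 4.55% of the 44 genes, against the backgrounds of 15.4 and 16.6%, 25.9 and 8.33%, and 26.8 and 3.34%. Dnajc15, a relative of Dnajc19 at the motor, went from 134 ± 136 to 1.06 ± 1.19 CPM in young controls (n = 2 and 3), and Hspa8, the cytosolic Hsp70 that delivers precursors, from 418 ± 8.12 to 40.5 ± 49.9 CPM. Immt, the core of the cristae organising complex, was higher in MII of aged controls, at 185 ± 67.0 against 67.0 ± 17.5 CPM. In NMN oocytes Romo1, a small inner membrane protein, was at 862 ± 245 in MII against 245 ± 129 CPM in GV oocytes (n = 3 each). Mitochondrial ribosomal protein genes (78 that passed) had median log2 ratios of -2.105, -2.52 and -3.40 at maturation in young control, aged control and NMN oocytes, and nuclear complex I genes (45) of -3.21, -2.67 and -3.52.

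The effect of age was read in control oocytes at each stage. In GV oocytes 3 of 35 import genes were called lower with age (Timm22, Timm8b and Tomm7) and 5 higher (Timm17b, Tomm40, Timm50, Timm23 and Timmdc1), against 5.69% and 19.7% of all genes. The call of Tomm7 is lost in deposited TPM. Ratios of means were 30.3-fold for Timm17b, 9.75-fold for Tomm40, 8.06-fold for Timm50 and 2.45-fold for Timm23. The levels above show that these differences were not alike in the batches. Of the aged GV oocytes, control 1 and NMN 1 and 2, all of batch 1, had Tomm40 at 66.0 to 77.4, Timm50 at 68.0 to 91.8, Timm17b at 28.8 to 48.8, Timm23 at 555 to 672, and Mtx1 at 124 to 141 CPM. The 2 aged GV oocytes of batch 2 were at 9.59 and 24.6, 26.3 and 28.1, 6.64 and 1.54, 225 and 282, and 9.35 and 39.7 CPM. Timm22 was at 9.48, 10.8 and 13.0 CPM in the 3 aged GV oocytes of batch 1 and at 0 in both of batch 2. Timm8b, Tomm7 and Hspa9 had the reverse order, with all 3 batch 1 oocytes from aged mice below both from batch 2. The same 3 batch 1 oocytes had the high C1qb given above and 13253 to 13816 genes with a count, against 11736 and 9883 in batch 2. The part of these in the import genes was not tested.

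Within batch 1, with 1 GV oocyte a side, the log2 ratio of aged to young was 5.64 for Timm17b, 3.22 for Tomm40, 2.46 for Timm50, 2.05 for Timm23, -2.76 for Timm8b, -1.90 for Tomm7 and 3.47 for Mtx1. Within batch 2 it was 1.43, 2.04, 4.77, 0.16, -0.46, -0.59 and -1.78 in the same order. For Timm22 the log2 ratio was -1.04 within batch 1 and -4.21 within batch 2, where the aged oocyte had 0 counts. Tomm40, Timm50, Timm17b and Timm22 thus kept their direction in both batches, the ratio of Timm23 was small in batch 2, and that of Mtx1 changed sign. The GV young control oocyte counted in batch 1 was deposited under a title with no batch and again under a title of batch 2, so its batch is uncertain.

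**Figure D5:**
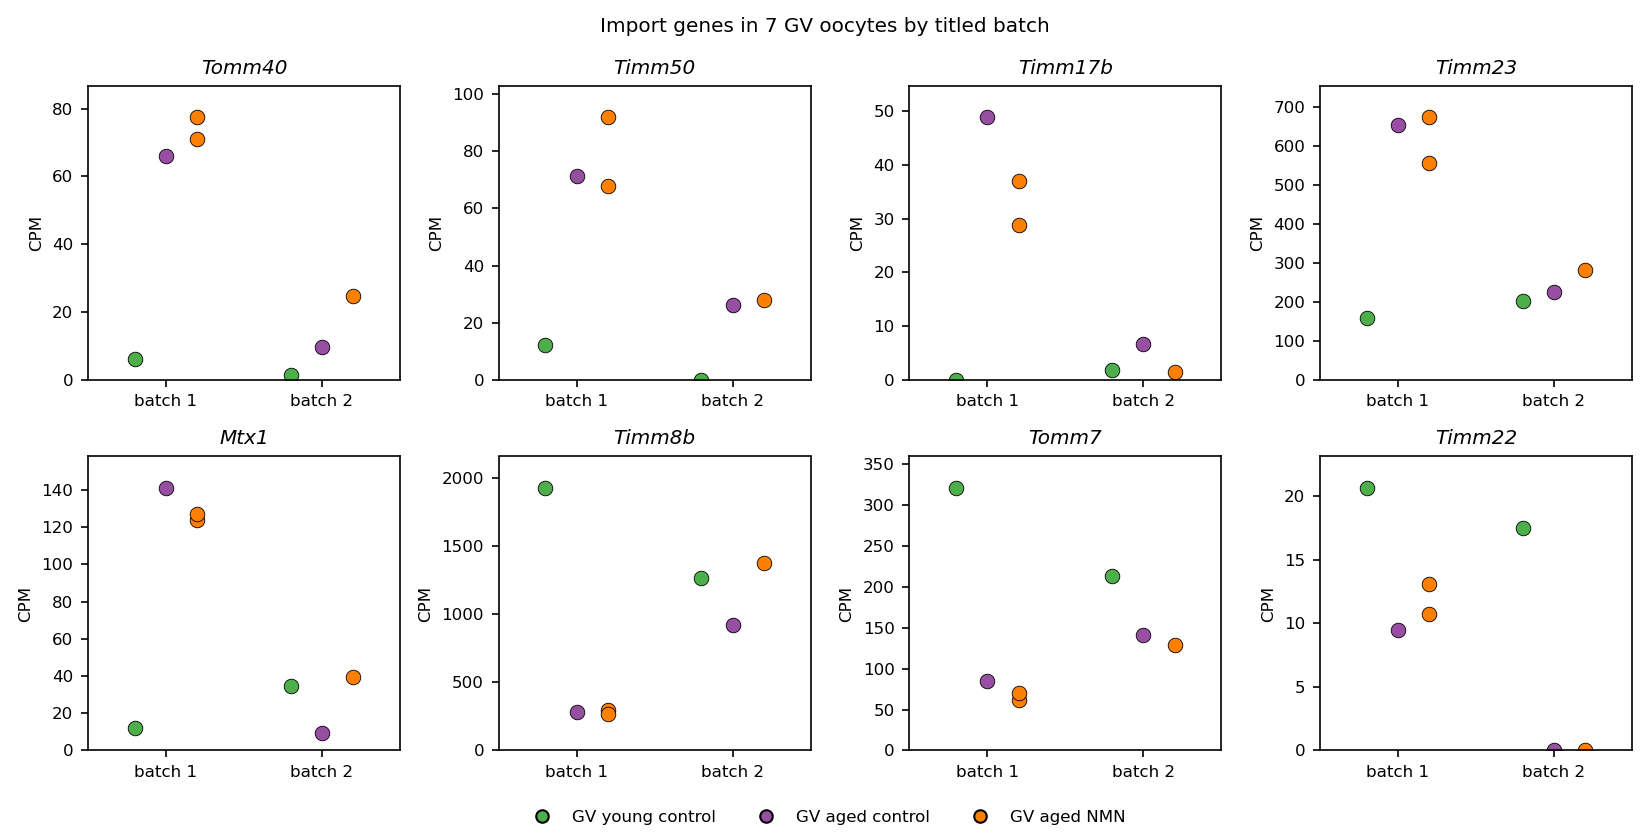
CPM of 8 import genes in the 7 GV oocytes, by batch (x axis) and condition (colour). Batch 2 is named in the titles, and GV libraries whose titles name no batch were taken as batch 1. Aged oocytes of batch 1 lie apart from aged oocytes of batch 2 for Tomm40, Timm50, Timm17b, Timm23, Mtx1, Timm8b, Tomm7 and Timm22, and in each panel the young oocytes of both batches are shown beside them.

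In MII oocytes 2 of 35 import genes were called with age. Grpel1 was called lower, at 5.65 ± 2.101 against 21.9 ± 9.41 CPM (n = 3 each), and Tomm22 higher, at 18.9 ± 3.73 against 8.16 ± 3.67 CPM, against 5.39% and 1.76% of all genes called. In deposited TPM the call of Tomm22 is lost and that of Grpel1 is not. The log2 ratio of Grpel1 was -1.79 within batch 1 and -1.74 within batch 2, and that of Tomm22 0.98 and 1.60. The median log2 ratio over the 35 genes was -0.50, and over all genes that passed -0.27.

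NMN was read against aged controls, which also serve the comparison with age. In GV oocytes 1 import gene was called lower (Timm29, at 0 in all 3 NMN oocytes) and 1 higher (Pmpca, which did not pass the filter), against 5.39% and 2.61% of all genes. Pmpca had 23, 1 and 4 counts in the NMN oocytes and 0 in the controls, so its lack of overlap rests on a single count, under the floor of 3. The median log2 ratio of the 35 genes was 0.22, against 0.01 for all genes that passed. For Timm17a, Timm23, Timm9 and Grpel1 the log2 ratio was 0.41, 0.20, 0.22 and 0.00, all under 2-fold. In CPM all 3 NMN oocytes lay above both aged controls for Timm17a and Timm9, while the groups overlapped for Timm23 and Grpel1. That order is lost in deposited TPM, where the log2 ratio was 0.07 for Timm17a and -0.003 for Timm9. The share of all genes with such an order was not counted.

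In MII oocytes 6 import genes were called lower with NMN (Timm17b, Timm10, Timm9, Mtx2, Timm44 and Tomm22) and 1 higher (Timm8a1), against 11.3% and 1.31% of all genes. Timm9 was at 9.75 ± 11.9 against 74.9 ± 35.5 CPM, Timm44 at 6.30 ± 3.44 against 28.4 ± 2.72 CPM and Mtx2 at 1.45 ± 2.25 against 16.2 ± 10.7 CPM (n = 3 each). Timm17b and Timm10 were at 0 in all 3 NMN oocytes, at least 36.9-fold and 29.7-fold lower. Timm8a1 was at 61.8 ± 52.9 against 3.30 ± 4.95 CPM, 18.7-fold higher. MII aged control oocytes 1, 2 and 2-1 held 3, 36 and 1 counts of it, so oocytes 1 and 2-1 were at or under the floor. Its ratio within batch 2 is thus against 1 count. In deposited TPM the call of Timm8a1 was kept, at a log2 ratio of 2.72. Within batch 1 and batch 2 the log2 ratio was -2.43 and -3.69 for Timm9, -1.93 and -2.22 for Timm44, -3.86 and -3.48 for Timm17b, and 3.89 and 3.66 for Timm8a1.

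Other members were not alike in the batches of the MII NMN group. NMN oocytes 1 and 2 had Dnajc19 at 0 and 0, Pam16 at 9.49 and 0 and Timm8b at 40.7 and 126 CPM, while oocyte 2-1 had 102, 169 and 1543 CPM, inside or above the range of MII aged controls. Timm21 ran the other way, at 209 and 494 against 0.626 CPM. The same oocytes 1 and 2 had the fewest genes with a count and the largest share of counts from the mitochondrial genome. The part of these library properties in the levels of import genes was not tested.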

How the data were processed

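Per the labels, the lysate of 1 oocyte went into each library with the TruePrep DNA Library Prep Kit V2. Per the submitters' processing notes, the tools were Cufflinks, TopHat2 2.1.1, Trim Galore 0.4.5 and FastQC 0.11.8, and the builds mm10 and GRCm38. The tables have the column names of RSEM, which those notes do not name, and the step that made them is not given in the sources used here. Per the file headers, the authors deposited an expected count per gene, which is not normalised. Per the file headers, the authors also deposited TPM, scaled by length and library; FPKM was not used.

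Symbols came from GENCODE vM21. Members and lists were chosen with earlier results of these data known. Expected counts were rounded, filtered with filterByExpr (minimum count 10 by group) of edgeR 4.0.16 in R 4.3.3, and scaled to CPM with TMM factors, and promoters came from RefSeq (GRCm38.p6). Comparisons use the log2 ratio of mean CPM after adding 1 CPM, while folds are plain ratios of means, or, with no count in the lower group, lower bounds against 3 counts over the group. The TMM scaling and the rule for calls were tested on simulated data, in the comparison of MII with GV young control oocytes only. Simulated oocytes of a group varied less than many import genes did here. The filter, the lower bounds and the promoter search were not tested in this way. Python 3.11.15 with pandas 2.3.3, numpy 2.4.6, scipy 1.17.1 and matplotlib 3.10.9 served the tables, intervals and figures.

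There were 7 comparisons: MII against GV in 3 conditions, and age and NMN within each stage. Values of every oocyte are given, in each comparison, for up to 5 called members per direction with the largest ratio, if the higher mean was 10 CPM or more, and for 10 core members named in the plan. Batch 2 was read from titles that say batch 2 with an oocyte number. All other libraries were taken as batch 1, though most of their titles name no batch. The MII NMN oocyte whose title says batch 2 without an oocyte number was placed in batch 1 as oocyte 2. Alternatives were RLE factors of DESeq2 1.42.0, TPM, no filter, other added constants, each batch alone, the small library kept, and each oocyte left out.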

Additional observations from a re-analysis of the deposited data

Results flagged for a closer look

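Timm17b went in opposite directions at maturation, with a log2 ratio of 2.28 in young controls and -4.55 in NMN-treated mice. Each MII young control oocyte was above both GV young control oocytes, and each MII NMN oocyte was below all 3 GV NMN oocytes. The difference between the conditions was not tested. In young controls the nearest oocytes were at 2.07 and 1.83 CPM, and the gap is lost with RLE scaling. In NMN-treated mice the lowest GV oocyte, 2-1, had 4 counts, at 1.54 CPM, near the floor of 3 counts.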

How the results depend on the processing

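No paired analysis was possible because each library is 1 oocyte, the labels name no animals and the values come from no test. Counts and medians here are over the 31 import genes that passed the filter. At maturation in young controls the median log2 ratio of import genes was -1.19 in TPM, -1.01 with 5 CPM added and -2.11 within batch 2, and 1 gene was called higher with RLE scaling and 5 within batch 2. RLE scaling moved the median of all genes there from 0.35 to 0.10. At maturation in aged controls the median was -0.96 with 5 CPM added, 0 genes were called lower with the small library kept, and 1 was called higher within batch 2. At maturation in NMN oocytes 2 genes were called higher within batch 1 and within batch 2, under either reading of the title. For age in GV oocytes 8 were called higher in TPM, 8 lower and 9 higher within batch 1, 9 higher within batch 2, and with the small library kept 0 were higher and the median was -0.78. For age in MII oocytes 2 were called higher with RLE scaling, 3 lower and 2 higher in TPM, 0 higher with 5 CPM added, 4 lower within batch 1, and 11 lower and 13 higher within batch 2, with a median of 0. For NMN in GV oocytes, where none of the 31 was called higher, 1 (Pmpca) was with no filter, 0 lower with the small library kept, 2 higher within batch 1, and 6 lower and 3 higher within batch 2. For NMN in MII oocytes 13 were called lower and 2 higher within batch 1, 12 and 5 within batch 2, and with the literal title 14 and 4 within batch 1 and 10 and 2 within batch 2. Batches hold 1 or 2 oocytes of a group, where absence of overlap is easily met. The shares of all genes called in these alternatives are not given, so the counts have no background beside them. The medians at maturation and for NMN in MII oocytes kept their sign in all alternatives run. That for age in GV oocytes (-0.20) changed sign in TPM, within each batch and without either young oocyte, that for age in MII oocytes without young control oocyte 1, and that for NMN in GV oocytes (0.23) in TPM, to -0.02. In all, 129 of the other 168 values stayed close to those reported.

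Leaving out each oocyte in turn moved the maturation median between -2.08 and -1.54 (young control), -1.98 and -1.57 (aged control) and -3.33 and -2.78 (NMN), with 16 to 18, 17 to 19 and 19 to 21 genes called lower and 3 to 6, 0 to 1 and 0 to 2 called higher. For age in GV oocytes the median ran from -0.26 to 0.11, with 4 to 6 lower and 4 to 10 higher. For age in MII oocytes it ran from -0.57 to 0.12, with 1 to 6 lower and 1 to 5 higher. For NMN in GV oocytes it ran from 0.15 to 0.29, with 1 to 3 lower and 0 to 6 higher. For NMN in MII oocytes it ran from -0.999 to -0.03, with 6 to 11 lower and 1 to 3 higher. Absence of overlap is more easily met with an oocyte fewer, so these ranges do not measure how far a count rests on single oocytes. For age in GV oocytes, for example, 3 genes were called lower with all oocytes, under the range of 4 to 6. The shares of all genes called with an oocyte left out are not given, so these counts have no background beside them either. A level under 3 counts, or 0.537 to 1.09 CPM before TMM scaling, could not be told from 0 in a library.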
